A study of Mus musculus with 10 samples.

Results

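NF-kB is a family of dimeric transcription factors that drives inflammatory gene expression in monocytes and macrophages. In resting cells IkB proteins hold the dimers in the cytoplasm. Signals from TNF, interleukin 1, CD40 or Toll-like receptors pass through TRAF adaptors to the IkB kinase complex, which marks IkB for destruction and frees the dimers. A slower branch runs through the kinase NIK, encoded by Map3k14, and matures the Nfkb2 product for pairing with RelB. Released dimers induce cytokines and also their own brakes, among them IkB-alpha and A20, so transcripts of these brakes are commonly read as a sign of pathway activity.

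The genes described here are 41 listed NF-kB subunits, regulators, receptors and inflammatory targets, found by gene symbol among the 52636 Ensembl genes of a count table. All 41 were present in the table. The list rests on gene function, not on a cut-off in the measured values, and was drawn up with earlier results of these data known. The table holds bulk RNA sequencing of nonclassical monocytes, the patrolling monocyte subset, sorted from mouse bone marrow to a purity that the labels give as 98%, with 5000 to 10000 cells per library. WT libraries came from LAIR1+/+ animals and LAIR1KO libraries from LAIR1-/- animals, which lack an inhibitory collagen receptor of leukocytes, with 5 libraries each. No treatment was given to either genotype, and no inflammatory stimulus is part of the design. The labels used here state neither the age, sex and strain of the animals nor whether each library is a separate animal, and a p-value therefore reflects library-to-library spread, which may be technical.

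The total count per library was 12106209 to 15356924. Lair1 stood at 328 to 400 CPM (counts per library size scaled by the TMM method) in WT and at 0 to 0.673 CPM in LAIR1KO (exact permutation test, two-sided, p = 0.00794, the lowest value that 5 against 5 allows), so every library matched its label. The 14 identity genes of nonclassical monocytes had a summed level of 10677 to 13965 CPM in WT and 8335 to 11441 CPM in LAIR1KO. Of these, 0 of 14 passed the edgeR test described below, and 6 had an unadjusted p under 0.05. The fold change was below 0 for all 14, against 6772 of 13469 tested genes. Their median log2 fold change, LAIR1KO minus WT, was -0.27. Myeloid progenitor genes stood apart: 10 of 12 were higher in LAIR1KO, their summed level was 560 to 1445 CPM in WT and 3248 to 6950 CPM in LAIR1KO, and it was highest in LAIR1KO replicates 4 and 5. Resident macrophage genes were lower for 7 of 11 tested, at a summed 1752 to 2260 CPM in WT and 957 to 1234 CPM in LAIR1KO. Neutrophil markers passed for 0 of 12 (896 to 2411 CPM in WT, 1418 to 2017 CPM in LAIR1KO) and B cell markers for 0 of 7 (959 to 1401 CPM and 914 to 1391 CPM). Dendritic cell markers had 3 lower and 1 higher of 8 (334 to 504 CPM and 261 to 389 CPM), erythroid markers 4 lower of 8 (120 to 1375 CPM and 65.3 to 161 CPM), classical monocyte markers 2 higher of 7 (696 to 1203 CPM and 931 to 1426 CPM), and T and NK cell markers 1 higher of 1 tested (6.43 to 22.4 CPM and 21.3 to 47.2 CPM). For comparison, 5.11% of all tested genes were higher and 1.68% lower in LAIR1KO, and 21.8% had an unadjusted p under 0.05. No marker of these lists was at 0 in all 10 libraries. Their part in the results below was not tested.

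Short promoter stretches are shown first because they mark a contrast in these data: kB motifs stood before genes as abundant as Nfkbia, at 376 CPM per kb of exon in WT, and before genes with hardly a count. Of the 41 genes, 33 matched the RefSeq promoter table (GRCm38.p6), which gives the 250 bases before and 50 after each annotated start. The kB consensus, the NF-kB binding motif, was searched on both strands, counting palindromic and overlapping matches once per window. It was present in 17 of 44 promoter windows of these genes (38.6%), belonging to 15 genes, and in 2779 of 32851 windows of the whole table (8.46%). The genes were listed for their part in the NF-kB pathway, so a higher share among them is no result of these data. Tnfrsf1b, Rela, Tnf, Il1b, Icam1 and Ptgs2 were among the genes without a match in these windows. Sites outside the windows and sites that differ from the consensus were not searched, so these genes may still have kB sites. The stretches below run 5′ to 3′ on the strand of the gene, with the match in capitals.
Nfkbia, chr12:55492657-55492686, minus strand: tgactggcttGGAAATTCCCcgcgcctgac
Nfkb2, chr19:46304688-46304717, plus strand: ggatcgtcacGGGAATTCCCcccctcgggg
Rel, chr11:23771042-23771071, minus strand: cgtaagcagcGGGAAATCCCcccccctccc
Tnip1, chr11:54962978-54963007, minus strand: tccatcatggGGGAATTCCCctcctgcctc
Cxcl1, chr5:90891164-90891193, plus strand: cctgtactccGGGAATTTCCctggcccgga
Cxcl2, chr5:90903792-90903821, plus strand: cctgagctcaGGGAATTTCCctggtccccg
Il6, chr5:30013060-30013089, plus strand: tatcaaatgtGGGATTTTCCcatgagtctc
The matches ended 20 bases before the start for Nfkbia, 30 for Nfkb2, 83 for Rel, 48 for Tnip1, 62 for Cxcl1, 88 for Cxcl2 and 35 for Il6. A match describes the letters in this window and is not a measured binding site.

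Nonclassical monocytes of both genotypes carried a full set of NF-kB transcripts, while several classical inflammatory products were absent or nearly so. A mean of at least 10 CPM in WT was reached by 34 of the 41 genes. Compared per kilobase of exon, the highest level in WT was that of Tnfrsf1b, the second TNF receptor, at 789 ± 62.5 CPM per kb (SD, n = 5). Nfkbia, which encodes IkB-alpha, followed at 376 ± 99.4 and Il10ra, the ligand-binding chain of the interleukin 10 receptor, at 362 ± 44.3 CPM per kb, a pair that did not differ beyond its spread. Tnfrsf1a, the first TNF receptor, stood at 140 ± 8.56, Casp1, the protease that matures interleukin 1 beta, at 124 ± 6.63, and Rela, the main activating subunit, at 73.2 ± 12.3 CPM per kb. Tnf itself was at 10.6 ± 1.11 CPM per kb. Too few counts to be tested were found for 6 genes.

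**Figure D1:**
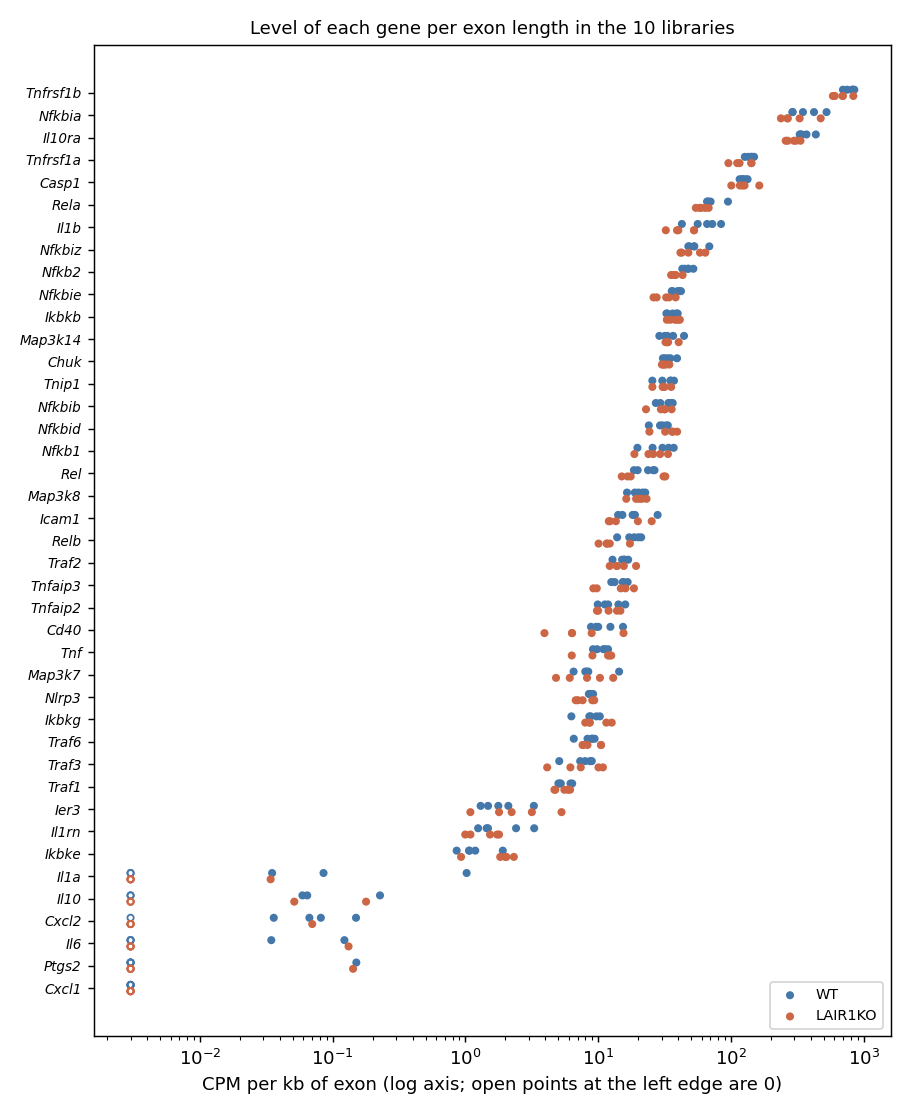
Level of each of the 41 genes per exon length (CPM per kb, log axis) in the 5 WT (blue) and 5 LAIR1KO (orange) libraries, ordered by the WT mean, with values of 0 drawn as open points at the left edge. Tnfrsf1b is at the top with 789 CPM per kb in WT, the 6 untested genes are at the bottom, and Cxcl1 is at 0 in all 10 libraries.

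The 6 genes without enough counts encode secreted ligands and an enzyme. Cxcl1, a neutrophil-attracting chemokine, had 0 counts in all 10 libraries, and the upper limit of 3 counts corresponds to 0.192 to 0.252 CPM depending on the library, counting error only. Cxcl2, its close relative, had 0, 2, 1, 2 and 4 counts in WT replicates 1 to 5 and 2 counts in LAIR1KO replicate 5, with 0 in the other LAIR1KO libraries. Interleukin 6 (Il6) had 5 counts in WT and 5 in LAIR1KO, all of the latter in replicate 1. Il10, which encodes an anti-inflammatory cytokine, had 6 and 4 counts. The prostaglandin synthase Ptgs2 had 10 counts in WT replicate 4, 9 in LAIR1KO replicate 5 and 0 in every other library. Il1a, which encodes interleukin 1 alpha, had 29 counts in WT, 26 of them in replicate 5, and 1 count in LAIR1KO. Differences between the genotypes were not detectable for these 6 genes at this depth.

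LAIR1KO was compared with WT to ask which transcripts of these cells differ without LAIR1. None of the 35 NF-kB pathway and inflammatory genes abundant enough to test passed the threshold, an adjusted p under 0.05 in the quasi-likelihood test of edgeR (p-values adjusted over 13469 genes by the Benjamini-Hochberg method), and all fold changes were small. By comparison 6.79% of all tested genes passed, 5.11% higher and 1.68% lower in LAIR1KO. The higher share of those calls was 75.3%, against 90.1% with scaling by library totals and 62.1% with GC and length trends removed. Log2 fold changes, LAIR1KO minus WT, ran from -0.57 for Il1b to 0.58 for Ikbke. They were below 0 for 26 of the 35 genes, with a median of -0.09, against 6772 of 13469 tested genes below 0 and a median of -0.00 over all of them. With scaling by library totals, which moved the median of all genes to 0.13, 14 of the 35 were below 0 and 21 above. An unadjusted p under 0.05 was reached by 7 of the 35 genes, of which 6 had a fold change below 0, and by 21.8% of all tested genes. DESeq2 called 4 of the 35 lower, namely Relb, Nfkb2, Il10ra and Il1b, where it called 11.3% of all genes, and limma voom called 0. The values of the genotypes overlapped for all 35 genes, whereas they did not for 7.66% of all tested genes (5.61% with LAIR1KO above and 2.06% with LAIR1KO below).

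The 95% interval of the fold change lay within 1.5-fold in either direction for 26 of the 35 genes and within 2-fold for 31. A larger difference in a bulk measurement of these libraries was therefore outside the interval for most of the genes, while smaller ones may have been missed. The intervals that reached beyond 2-fold were those of Cd40, Il1rn, Ikbke and Ier3. Because RNA was measured in bulk, fewer cells with a transcript and less of it per cell cannot be told apart.

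**Figure D2:**
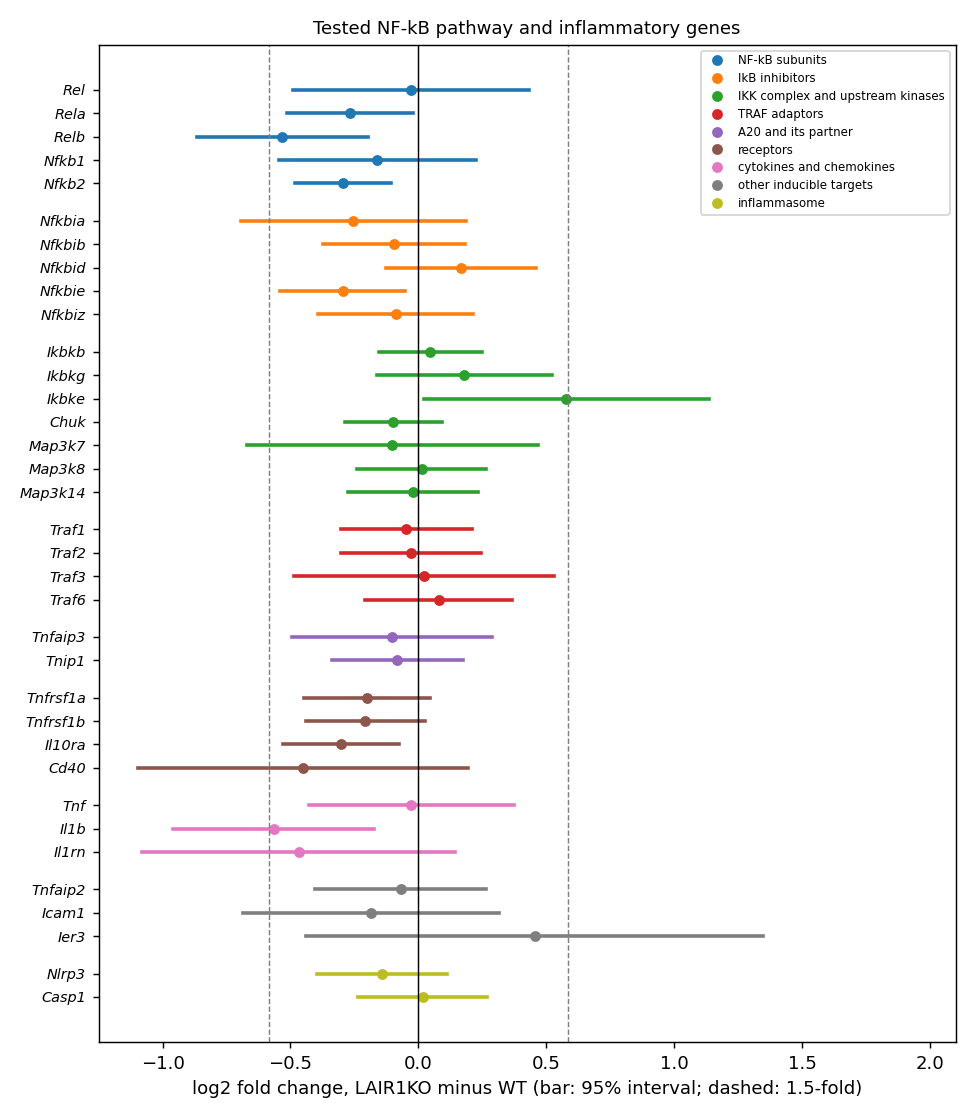
Log2 fold change (LAIR1KO minus WT) of the 35 tested genes with its 95% interval (bars), coloured by role, with dashed lines at 1.5-fold. The points lie between -0.57 and 0.58, and 26 of the 35 intervals stay inside the dashed lines.

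The 5 subunits form the dimers, and their fold changes over all 10 libraries were all below 0 without passing. That of Rel was near 0 and came out above 0 in 6 alternative fits, with library totals (0.11) and without WT replicate 1 or 5 or LAIR1KO replicate 1, 2 or 3 (0.02 to 0.08). That of Nfkb1 was above 0 in 1 alternative fit, without LAIR1KO replicates 4 and 5 (0.0090). RelB and the p100 precursor encoded by Nfkb2, the partners of the slower branch, had the smallest p-values of all 35 genes. Relb (ENSMUSG00000002983, GRCm38 chromosome 7, 19606217 to 19629438, minus strand) stood at 54.0, 66.6, 81.9, 72.6 and 78.0 CPM in WT replicates 1 to 5 and at 67.4, 45.0, 39.1, 45.2 and 47.5 CPM in LAIR1KO replicates 1 to 5. LAIR1KO replicates 2 to 5 lay below every WT library, and replicate 1 lay inside the WT range. LAIR1KO differed from WT by a log2 fold change of -0.53 ± 0.15 (± SE; edgeR adjusted p = 0.0596). Nfkb2 (ENSMUSG00000025225, chromosome 19, 46304320 to 46312385, plus strand) stood at 218, 218, 206, 197 and 239 CPM in WT and at 198, 162, 175, 174 and 170 CPM in LAIR1KO. Again 4 of the 5 LAIR1KO libraries were below all WT libraries, and replicate 1 overlapped with WT replicate 4. Its log2 fold change was -0.29 ± 0.09 (edgeR adjusted p = 0.0624), and it spread little among replicates, with a coefficient of variation of 7.31% in WT and 7.60% in LAIR1KO. Without LAIR1KO replicate 1 both genes passed, Relb with a log2 fold change of -0.68 (edgeR adjusted p = 0.0130) and Nfkb2 with -0.35 (edgeR adjusted p = 0.0399). For both genes replicate 1 was the LAIR1KO library most against a difference, and leaving it out favours a call. That fit called 5.85% of all tested genes, against 6.79% with all libraries. Over 24 alternative fits the adjusted p ran from 0.0130 to 0.211 for Relb and from 0.00751 to 0.259 for Nfkb2, and 6 and 4 of them called the gene at 0.05. Exons of Nfkb2 overlapped those of Psd on the other strand over 6.52% of their length, with a mean of 84.6 counts for Psd against 2666 for Nfkb2. They also overlapped those of the noncoding gene AC114539.1 on the other strand over 11.6%, and no count was available for that gene. Without a stated strand setting such reads cannot be told apart.

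Per kilobase of exon Rela, the activating subunit of the fast branch, had the highest WT level of the 5. It stood at 216, 203, 292, 208 and 205 CPM in WT and at 197, 183, 209, 167 and 179 CPM in LAIR1KO (log2 fold change -0.27 ± 0.11, edgeR adjusted p = 0.193). LAIR1KO replicate 3 was the 1 library within the WT range. Nfkb1, the source of p50, stood at 310, 368, 409, 447 and 238 CPM in WT and at 313, 353, 405, 288 and 226 CPM in LAIR1KO, so that the genotypes covered nearly the same range (-0.16 ± 0.18, edgeR adjusted p = 0.657). Rel, which encodes c-Rel, split the LAIR1KO libraries. It stood at 194, 177, 148, 139 and 198 CPM in WT, at 131, 112 and 124 CPM in LAIR1KO replicates 1 to 3, below all WT libraries, and at 239 and 232 CPM in replicates 4 and 5, above all of them. The fold change of Rel was -0.03 ± 0.21 over all libraries (edgeR adjusted p = 0.963) and -0.48 without LAIR1KO replicates 4 and 5 (edgeR adjusted p = 0.0802). These are the libraries with the highest progenitor marker level, 5541 and 6950 CPM against 3248 to 4043 CPM in the other LAIR1KO libraries, and the part of those cells in the Rel values was not tested. The summed CPM of the 5 subunits was 958 to 1136 in WT and 854 to 952 in LAIR1KO, given as a description with no test. It depends on the TMM factors, which were 0.935 to 0.983 in WT and 0.984 to 1.095 in LAIR1KO. The sum was not made with library totals.

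**Figure D3:**
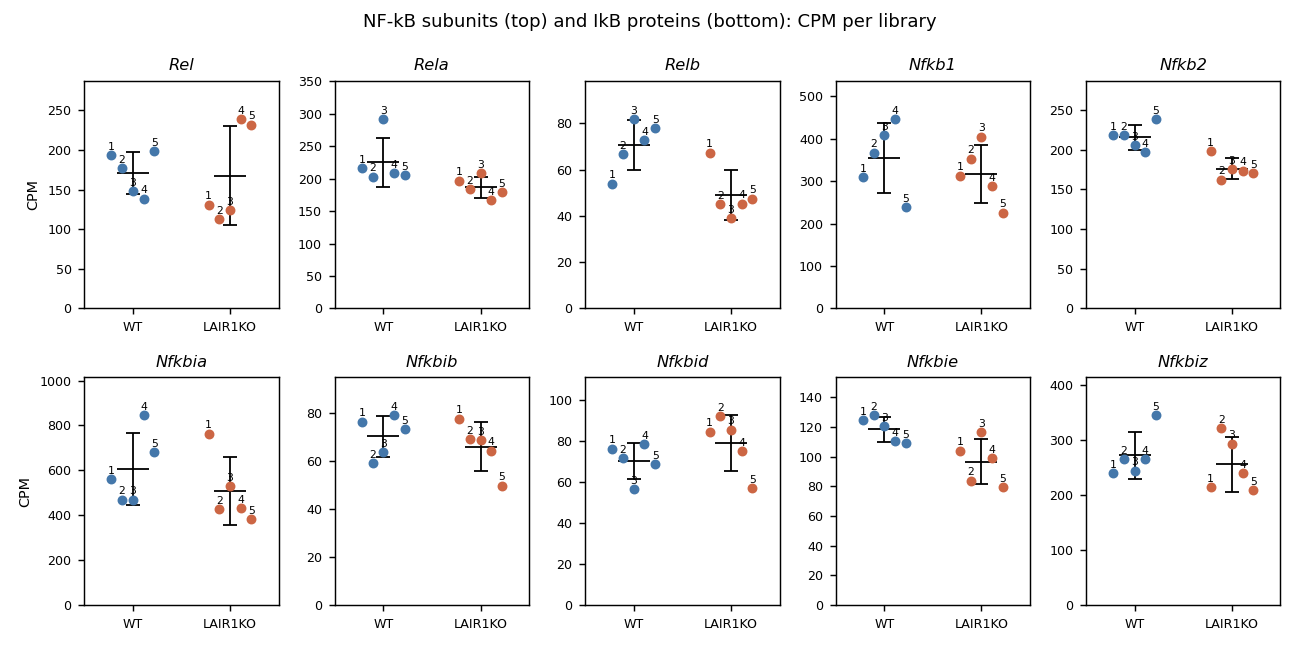
CPM of the 5 NF-kB subunits (top) and the 5 IkB family genes (bottom) in each library, numbered by replicate, with the mean and SD of each genotype (n = 5). LAIR1KO replicate 1 stays within the WT range for Relb and Nfkb2, and LAIR1KO replicates 4 and 5 lie above all WT libraries for Rel.

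The IkB family holds the inhibitors of NF-kB, and none of its 5 genes passed. Nfkbia, an immediate target of the pathway, had the highest WT level per kb, and stood at 561, 469, 468, 845 and 680 CPM in WT and 764, 428, 530, 432 and 383 CPM in LAIR1KO. Its spread within each genotype (coefficient of variation 26.5% and 30.2%) exceeded the difference between them (log2 fold change -0.25 ± 0.20, edgeR adjusted p = 0.515). WT replicate 4 and LAIR1KO replicate 1 were the high libraries. Nfkbie, which encodes IkB-epsilon, had the smallest p of the family, with 125, 128, 121, 111 and 109 CPM in WT and 104, 83.9, 117, 99.0 and 79.5 CPM in LAIR1KO (-0.29 ± 0.11, edgeR adjusted p = 0.147). Replicate 3 was the 1 LAIR1KO library inside the WT range. Nfkbib (IkB-beta) averaged 70.3 ± 8.57 CPM in WT against 65.8 ± 10.2 CPM in LAIR1KO (SD over 5 libraries of each), and Nfkbiz, an atypical nuclear member that acts as a coactivator, at 272 ± 42.5 and 256 ± 49.9 CPM. Nfkbid, the other atypical nuclear member on the list, was the family's 1 gene with a fold change above 0 (0.17 ± 0.14, edgeR adjusted p = 0.518).

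Immediate early genes, which like Nfkbia respond within minutes to handling and to signals, are given beside these values. Of 13 tested genes 2 were lower in LAIR1KO, against 1.68% of all tested genes. The fold change was below 0 for 12 of the 13. An unadjusted p under 0.05 in edgeR was reached by 7, against 21.8% of all tested genes. The summed level was 4084 to 4553 CPM in WT and 2813 to 3991 CPM in LAIR1KO, without overlap. Its largest part was Nr4a1, at 1356 to 1629 CPM in WT and 902 to 1541 CPM in LAIR1KO. Nr4a1 is also on the identity list of nonclassical monocytes, so the gap rests in part on a gene of both lists. The sums use TMM scaling and were not made with library totals. How often sums of other gene lists fail to overlap was not counted. The part of the immediate early genes in the values of the inducible genes was not tested.

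The IkB kinase complex and its upstream kinases carry the signal to IkB. Ikbkb, the catalytic kinase of the fast branch, had the highest WT level per kb, and stood at 740, 623, 757, 631 and 695 CPM in WT and 724, 667, 786, 756 and 627 CPM in LAIR1KO, 2 overlapping ranges (log2 fold change 0.05 ± 0.09, edgeR adjusted p = 0.824). Its 95% interval, -0.16 to 0.25, was among the narrower ones. Chuk, the kinase IKK-alpha that also serves the slower branch, was at 173 ± 16.8 and 162 ± 8.16 CPM, and the scaffold Ikbkg (NEMO) at 70.7 ± 12.4 and 80.1 ± 16.7 CPM. Exons of Ikbkg overlapped those of the more abundant gene G6pdx on the other strand over 5.15% of their length, with 5172 mean counts against 1031. Map3k14, which encodes NIK, was at 229 ± 38.9 and 226 ± 22.0 CPM, Map3k8 (Tpl2, which links the pathway to ERK) at 89.7 ± 10.8 and 90.5 ± 11.6 CPM, and Map3k7 (TAK1, which activates the IkB kinases) at 58.5 ± 19.5 and 54.5 ± 20.98 CPM. Ikbke, which encodes the IKK-related kinase of interferon and NF-kB signalling, had the largest fold change above 0. It stood at 17.2, 7.74, 9.67, 9.59 and 10.7 CPM in WT and 18.3, 16.5, 8.35, 20.9 and 17.97 CPM in LAIR1KO. LAIR1KO replicates 1, 4 and 5 lay above every WT library and replicates 2 and 3 did not (0.58 ± 0.26, edgeR adjusted p = 0.213).

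The 4 TRAF adaptors, ubiquitin ligases or scaffolds that couple receptors to kinases, had fold changes from -0.05 to 0.08. Traf2, the highest per kb in WT, stood at 80.5, 80.0, 77.2, 85.7 and 65.4 CPM in WT and at 79.6, 70.8, 98.4, 70.3 and 62.3 CPM in LAIR1KO (log2 fold change -0.03 ± 0.13, edgeR adjusted p = 0.937), with the ranges overlapping. Traf6, the adaptor of the interleukin 1 and Toll-like receptors, had the smallest p of the 4, at 65.5, 74.1, 70.9, 51.6 and 70.7 CPM in WT and 60.1, 60.7, 65.4, 82.8 and 82.7 CPM in LAIR1KO (0.08 ± 0.13, edgeR adjusted p = 0.782). As with Rel, LAIR1KO replicates 4 and 5 lay above every WT library for Traf6, and they did so for Traf3, a brake on NIK, at 73.8 and 79.8 CPM against 37.4 to 65.8 CPM in WT. Without these libraries the fold changes turned below 0, to -0.10 for Traf6 and -0.37 for Traf3, and neither passed (edgeR adjusted p = 0.743 and 0.418). Traf1, itself an NF-kB target, was at 49.2 ± 5.64 and 47.7 ± 5.85 CPM.

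A20, encoded by Tnfaip3, edits ubiquitin chains to end NF-kB signalling, and Tnip1 encodes an A20-binding partner. Tnfaip3 was at 90.7, 96.2, 112, 111 and 120 CPM in WT and at 134, 66.4, 70.5, 116 and 107 CPM in LAIR1KO (log2 fold change -0.10 ± 0.18, edgeR adjusted p = 0.799). The LAIR1KO libraries lay on both sides of the WT range, with replicate 1 above it and replicates 2 and 3 below it. Tnip1 was at 90.5, 125, 132, 108 and 124 CPM in WT and at 110, 112, 126, 108 and 90.6 CPM in LAIR1KO, every LAIR1KO library within the WT range (-0.08 ± 0.12, edgeR adjusted p = 0.745).

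The receptors had 4 fold changes below 0, and none passed. Tnfrsf1b stood at 3152, 2871, 3245, 2665 and 3129 CPM in WT and 2662, 2313, 3190, 2646 and 2237 CPM in LAIR1KO (log2 fold change -0.21 ± 0.11, edgeR adjusted p = 0.285). LAIR1KO replicate 3 was within the WT range and the other 4 were below it, replicates 1 and 4 only just. Il10ra was at 1296, 1164, 1153, 1194 and 1524 CPM in WT and at 1043, 904, 1082, 1169 and 936 CPM in LAIR1KO, with replicate 4 the 1 overlapping LAIR1KO library (-0.30 ± 0.11, edgeR adjusted p = 0.111). Tnfrsf1a was at 362 ± 22.2 and 315 ± 53.1 CPM. Cd40, the receptor for the T cell ligand CD40L, was at 42.1, 32.8, 34.1, 52.4 and 30.1 CPM in WT and at 21.6, 30.4, 52.8, 21.7 and 13.4 CPM in LAIR1KO (-0.45 ± 0.30, edgeR adjusted p = 0.419). LAIR1KO replicate 3 held the highest Cd40 value of all 10 libraries, and without it the fold change was -0.81 and passed (edgeR adjusted p = 0.0475). Leaving out the library that lies most against a difference favours a call. That fit was the 1 of 25 alternatives that called Cd40, and it called 8.56% of all tested genes against 6.79% with all libraries.

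Among cytokines, interleukin 1 beta had the highest WT level per kb and was the one with the smallest p. Il1b (ENSMUSG00000027398, chromosome 2, 129364570 to 129371139, minus strand) stood at 107, 126, 161, 81.4 and 138 CPM in WT and at 74.8, 100, 101, 76.6 and 61.6 CPM in LAIR1KO. LAIR1KO replicates 1, 4 and 5 lay below every WT library, and WT replicate 4 was the low library of its group. LAIR1KO differed from WT by a log2 fold change of -0.57 ± 0.18 (edgeR adjusted p = 0.0855), and without WT replicate 4 it was -0.68 and passed (edgeR adjusted p = 0.0339). Leaving out that low WT library favours a call, and the fit called 5.29% of all tested genes, against 6.79% with all libraries. Over the 24 alternative fits the adjusted p of Il1b ran from 0.0297 to 0.307, and 3 fits called the gene at 0.05. Il1rn, which encodes the interleukin 1 receptor antagonist, was at 10.9 ± 4.78 and 7.90 ± 2.02 CPM (-0.47 ± 0.28, edgeR adjusted p = 0.369), with WT replicate 1 highest at 18.2 CPM, and its fold change was 0.04 without WT replicates 1 and 4. Tnf, which encodes the founding TNF family ligand, was at 14.97, 19.4, 16.1, 17.9 and 18.4 CPM in WT and at 14.8, 19.4, 20.6, 20.02 and 10.4 CPM in LAIR1KO. The ranges of Tnf overlapped and its fold change was -0.03 ± 0.19 (edgeR adjusted p = 0.958), with a 95% interval of -0.43 to 0.37.

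**Figure D4:**
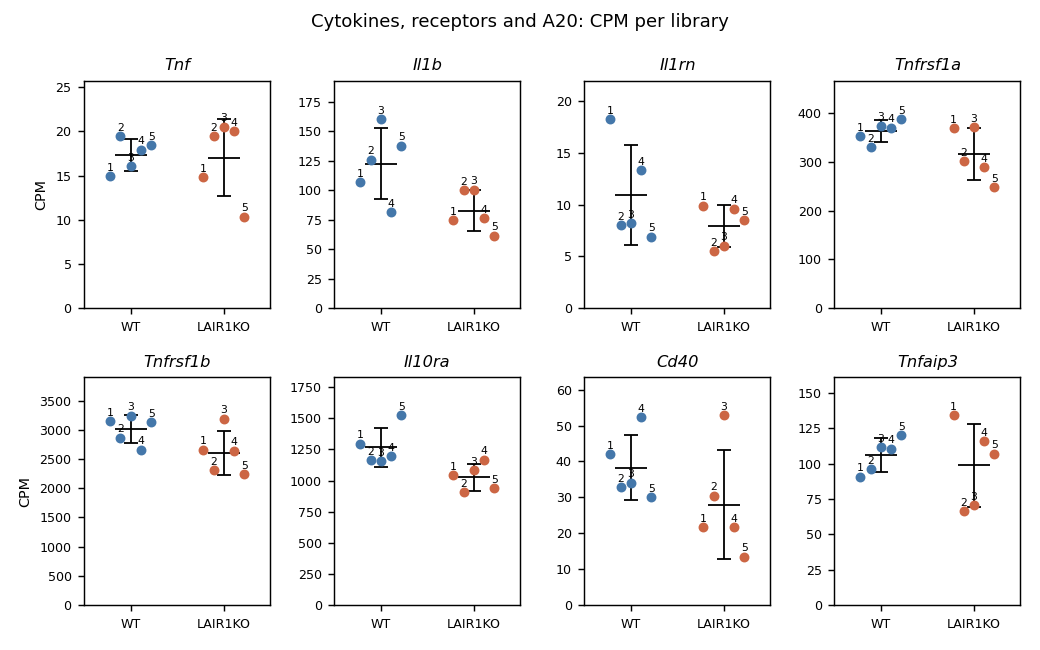
CPM of the 3 tested cytokine genes, the 4 receptors and Tnfaip3 in each library, numbered by replicate, with the mean and SD of each genotype (n = 5). The genotypes overlap in every panel, and LAIR1KO replicate 5 is the lowest of the 10 libraries for Tnf, Il1b, Tnfrsf1a, Tnfrsf1b and Cd40.

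The remaining targets and the inflammasome genes did not pass either. Icam1, the adhesion molecule induced by NF-kB, was the highest of the other targets per kb in WT, and stood at 82.5, 66.3, 79.2, 122 and 61.6 CPM in WT and 59.2, 86.8, 110, 53.5 and 52.4 CPM in LAIR1KO (log2 fold change -0.19 ± 0.23, edgeR adjusted p = 0.695). LAIR1KO replicates 1, 4 and 5 were below the WT range, and the fold change was 0.05 without replicates 4 and 5 and 0.07 without WT replicates 1 and 4. Ier3, an early response gene, was low at 1.67, 3.70, 2.38, 2.001 and 1.47 CPM in WT and 3.58, 5.99, 2.52, 2.02 and 1.23 CPM in LAIR1KO, from 144 and 226 counts in all (0.45 ± 0.41, edgeR adjusted p = 0.573). Tnfaip2, a TNF-induced gene, was at 63.0 ± 12.1 and 60.1 ± 11.1 CPM. Nlrp3, the sensor of the NLRP3 inflammasome, varied least among the WT libraries, at 37.1, 34.5, 36.1, 35.5 and 34.9 CPM, and stood at 28.6, 37.9, 31.0, 36.6 and 27.5 CPM in LAIR1KO (-0.14 ± 0.12, edgeR adjusted p = 0.527). LAIR1KO replicates 1, 3 and 5 were below the WT range of Nlrp3 and replicate 2 above it. Casp1 was at 193, 183, 183, 200 and 174 CPM in WT and 190, 183, 245, 175 and 151 CPM in LAIR1KO (0.02 ± 0.12, edgeR adjusted p = 0.959), the LAIR1KO values spreading to both sides of WT.

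The lowest and the highest library were counted for each of the 35 tested genes. LAIR1KO replicate 5 held the lowest value of all 10 libraries for 16 of them, followed by LAIR1KO replicate 2 with 7, and no other library exceeded 3. The same count was not made over all tested genes, so it cannot be said whether these places are particular to the 35 genes. The highest value fell in WT replicate 3 for 7 genes, in WT replicate 5 for 6, and in WT replicate 4, LAIR1KO replicate 3 and LAIR1KO replicate 4 for 5 each. LAIR1KO replicate 5 also had the highest progenitor marker level, and the part of this in its low values was not tested. Without replicates 4 and 5 of LAIR1KO, 22 of the 35 genes stood below 0 (median log2 fold change -0.08), and 0 passed.

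**Figure D5:**
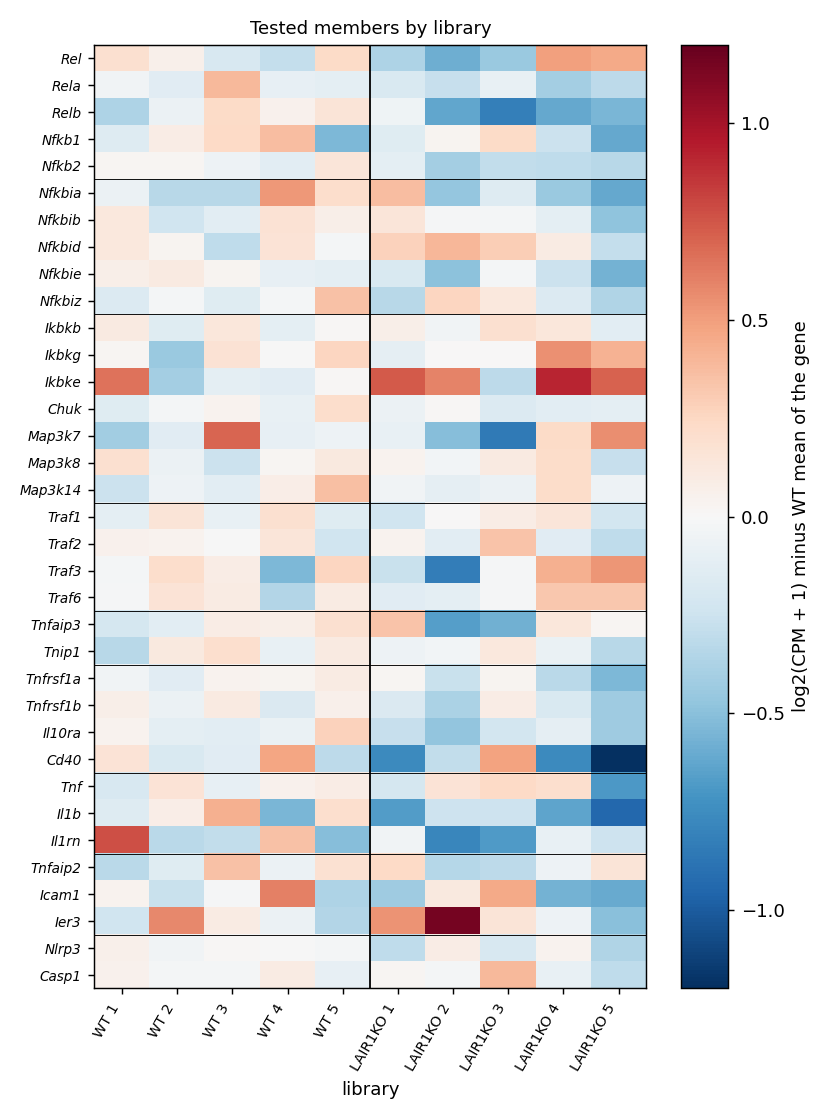
Heat map of log2(CPM + 1) of the 35 tested genes in the 10 libraries, each gene set relative to its WT mean, with lines between the roles. LAIR1KO replicates 4 and 5 share higher values of Rel, Ikbkg, Traf3 and Traf6, and LAIR1KO replicate 5 is the lowest library for 16 genes.

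Further genes of the pathway were counted from 5 lists that were chosen by function. Of 103 tested genes 1 was higher and 6 lower in LAIR1KO, a share of 6.80% against 6.79% of all tested genes in either direction. By direction, 5.11% of all tested genes were higher and 1.68% lower. Below 0 stood 80 of the 103 genes (median log2 fold change -0.15), against 6772 of 13469 over all tested genes. Inflammasome components passed for 0 of 16, and the smallest p there was that of Txnip, a thioredoxin inhibitor that can engage NLRP3 (log2 fold change -0.35, edgeR adjusted p = 0.0730). Cytokine receptors and TNF processing genes passed for 0 of 14, with the smallest p for the TNF receptor family gene Tnfrsf26 (1.64, edgeR adjusted p = 0.0554). An unadjusted p under 0.05 was reached by 3 of the 16 and 7 of the 14 genes, against 21.8% of all tested genes, and DESeq2 called both named genes.

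Of 20 ubiquitin editing genes and negative regulators 1 passed, against 6.79% of all tested genes. It was Bcl3, which encodes an atypical nuclear IkB protein that binds p50 and p52 dimers. Bcl3 stood at 40.9, 62.5, 102, 81.4 and 103 CPM in WT and 39.3, 57.6, 35.5, 34.5 and 48.3 CPM in LAIR1KO (-0.86 ± 0.23, edgeR adjusted p = 0.0438), with LAIR1KO replicates 2 and 5 inside the WT range. Its call was lost in 13 of the 24 alternative fits, 8 of them fits with 1 library left out (each WT library but replicate 1 and each LAIR1KO library but replicate 2).

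Of 30 further NF-kB target genes 5 passed (16.7%), 1 higher and 4 lower. Over all tested genes 6.79% passed, 5.11% higher and 1.68% lower. The list was chosen with earlier results of these data known, and the difference in share was not tested. Il12a, which encodes the p35 chain of interleukin 12, rose from 2.84, 5.13, 2.45, 4.62 and 13.6 CPM in WT to 21.9, 27.7, 15.3, 24.1 and 18.9 CPM in LAIR1KO, with no overlap (log2 fold change 1.91 ± 0.39, edgeR adjusted p = 0.0113). The chemokine Cxcl16 fell from 39.7, 16.7, 15.9, 35.5 and 13.6 CPM to 6.71, 2.49, 2.72, 7.32 and 11.7 CPM, also without overlap (-1.97 ± 0.44, edgeR adjusted p = 0.0161), and exons of Zmynd15 on the other strand overlapped 18.3% of its exon length. Without WT replicates 1 and 4 neither Il12a nor Cxcl16 passed (edgeR adjusted p = 0.0885 and 0.136), and without LAIR1KO replicates 4 and 5 Il12a did not (edgeR adjusted p = 0.0536). Ccl5, a chemokine, stood at 6.61, 3.11, 2.97, 4.35 and 2.40 CPM in WT and 1.28, 0.605, 0.597, 1.48 and 2.03 CPM in LAIR1KO, all below WT. It was lower by a log2 fold change of -1.70 ± 0.41 (edgeR adjusted p = 0.0254) and lost its call without WT replicate 1 or 4 or LAIR1KO replicate 2 or 4. Vcam1 (-1.64), also on the resident macrophage list, and the interferon-inducible chemokine Cxcl10 (-1.49) were lower with adjusted p-values in edgeR of 0.0394 and 0.0499. When single libraries were left out, 7 and 8 of 10 fits no longer called them, and limma voom called neither. Resident macrophage markers, given above, were also lower in LAIR1KO, and their part in the chemokine values was not tested.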

How the data were processed

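Bulk RNA sequencing was available for 5 WT and 5 LAIR1KO libraries of sorted marrow nonclassical monocytes. Per the submitters' processing notes, GSNAP was the aligner and GRCm38.p5 the genome build. How reads were counted, on which annotation release and with which strand setting was not given in the sources used here, so reads of overlapping antisense genes could not be told apart. The authors deposited raw read counts per Ensembl gene, with no normalization, and 0 columns were left unmapped. Symbols, positions and exon lengths came from GENCODE M21 (GRCm38), which named 52489 of 52636 identifiers.

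The analysis ran in R 4.3.3, using edgeR 4.0.16 with filterByExpr (minimum count 10, minimum total 15), TMM scaling, and glmQLFTest of LAIR1KO against WT with no covariate. The SE is the fold change divided by the root of F, and 95% intervals use the total degrees of freedom of the fit, with no adjustment for the number of genes. The procedure was tested on simulated data, and its recovery of small changes there is not given here. The gene members and lists were chosen with earlier results of these data known. All 41 genes are named. Library values are given, in each role, for the most abundant gene, the gene with the smallest p and some others. From the 5 further lists the 3 genes with the smallest p past the threshold are named, or otherwise the 1 with the smallest p. Vcam1 and Cxcl10 were added after their values were seen. The named result of the receptor-proximal signalling list is not reported here. Alternatives used RLE, upper-quartile and total-count scaling, other filters, a replicate block, left-out libraries, DESeq2 1.42.0, limma 3.58.1 voom, robust dispersion, sva 3.50.0 and removal of GC and length trends. Chi-square over degrees of freedom was 15.5 to 78.3 between pairs of replicate libraries, and none repeated another.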

Additional observations from a re-analysis of the deposited data

Results flagged for a closer look

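Single libraries stood apart within their genotype in 13 of 80 groups examined, by a gap to the nearest library above 0.71 of the group's range. Chance flags about 1 in 20 groups of normally distributed values. That rate does not hold for genes with few counts, where a group with counts in 1 library alone is always flagged. The 13 of 80 can therefore not be set against it. Among tested genes, WT replicate 3 was high for Rela (292 CPM) and for Map3k7 (92.3 CPM), WT replicate 5 for Nfkbiz (345 CPM), and LAIR1KO replicate 4 for Map3k14 (265 CPM). The other 9 concern genes with few counts. Il1a was highest in WT replicate 5 (2.01 CPM) and, from 1 count, in LAIR1KO replicate 2 (0.0673 CPM). Il6 was highest in WT replicate 3 (0.297 CPM) and LAIR1KO replicate 1 (0.320 CPM), and Il10 in WT replicate 3 (0.297 CPM) and LAIR1KO replicate 4 (0.234 CPM). Cxcl2 was found in LAIR1KO replicate 5 alone of its genotype (0.145 CPM), and Ptgs2 in WT replicate 4 (0.690 CPM) and LAIR1KO replicate 5 (0.652 CPM) alone.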

How the results depend on the processing

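The count of 0 of the 41 genes higher in LAIR1KO was the same in 24 alternative fits and at a looser threshold, and the count of 0 lower was the same in 14 of the 24. The number lower was 1 with RLE scaling (Nfkb2), 1 with upper-quartile scaling (Relb), 4 with DESeq2, 2 with 1 surrogate variable (Relb and Nfkb2), 1 with GC and length trends removed (Relb), 1 without WT replicates 1 and 4 (Il1b), 3 at an adjusted p under 0.1 (Relb, Nfkb2 and Il1b), and 0 to 2 with 1 library left out. All genes past the threshold numbered 914, and 1379 with library totals, 600 with the replicate block, 1516 with DESeq2, 1431 with 1 surrogate variable, 376 without LAIR1KO replicates 4 and 5, 338 without WT replicates 1 and 4, 1474 at an adjusted p under 0.1, and 535 to 1170 with 1 library left out. The 7 calls among the other pathway genes became 12 with DESeq2, 4 with voom, 4 with voom and quality weights, 14 with 1 surrogate variable, 13 with the trends removed, 4 without LAIR1KO replicates 4 and 5, 3 without WT replicates 1 and 4, 12 at an adjusted p under 0.1, and 4 to 7 with 1 library left out. The cause of these changes was not tested. Sign changes within 1 SE of an uncalled value are not counted here. Beyond that, uncalled values turned to -0.0535 for Ikbkg, -0.37 for Traf3, -0.10 for Traf6 and 0.0497 for Icam1 without LAIR1KO replicates 4 and 5, to 0.0368 for Il1rn and 0.0684 for Icam1 without WT replicates 1 and 4, to -0.12 for Map3k8 with the trends removed, and with library totals to 0.0336 for Chuk, 0.11 for Map3k14, 0.0814 for Traf1 and 0.0433 for Tnip1. With the replicate block the adjusted p was 0.152 for Relb, 0.138 for Nfkb2 and 0.0861 for Il1b. Same-numbered libraries correlated at -0.07 to 0.04 and none best with its own number, so no pairing by number was seen over all genes. Correlations over all genes cannot exclude a shared effect that is small or confined to few genes.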
